A study of Mus musculus with 6 samples.

Results

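The genes described here encode nuclear subunits of the mitochondrial respiratory chain, complexes I to V, measured on microarrays in sorted cells of the mouse embryonic ventral midbrain. Members were all probe sets whose single platform gene symbol matched the naming pattern of a complex subunit, with no use of measured values. The patterns were Nduf followed by a, b, c, s or v and a number, Sdh followed by a to d, any Uqcr name, Cox followed by a number from 4 to 8, a letter and an optional digit, and any Atp5 name. They took 160 of 34945 probe sets with 1 symbol, which stood for 79 of 18193 genes. Complex I had 34 of these genes, complex II 4, complex III 8, complex IV 16 and complex V 17. Complexes were assigned by these gene names alone, not by evidence on the proteins. Subunits whose names fall outside the patterns, or whose probe sets list several genes, were not members.

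The study compared 2 groups of 3 arrays, 1 array per sample, described as biological replicates in the series' design text. Positive cells were GFP-positive cells sorted from the ventral mesencephalon of Ngn2-GFP mice of CD1/129 strain at embryonic day 12.5, and were meant to hold the progenitors of dopaminergic neurons. Negative cells were GFP-negative cells sorted from the same region and day of Lmx1a-GFP mice of C57BL/6 strain, and served as a non-dopaminergic reference. Every animal carried a GFP reporter, and strain, reporter line and sort gate differed together between the groups, so their parts cannot be told apart. The comparison asks which transcripts distinguish dopaminergic progenitors from their neighbours. For the subunit genes it asks whether the sorted populations differed in their transcripts for oxidative phosphorylation.

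Complex I oxidises NADH and complex II oxidises succinate, and both pass electrons to ubiquinone. Complex III passes them on to cytochrome c and complex IV to oxygen, while complexes I, III and IV pump protons across the inner mitochondrial membrane. Complex V, the ATP synthase, lets the protons back and makes ATP. Most subunits are encoded in the nucleus and meet a few subunits encoded by mitochondrial DNA. Neural progenitors are known to rely much on glycolysis and to turn more to oxidative phosphorylation as they become neurons.

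The labels were checked first. Lmx1a, the gene whose reporter was absent from the negative cells, and Th, the rate-limiting enzyme of dopamine synthesis, were higher in positive cells by log2 differences of 4.95 (SE 0.63, adjusted p = 0.00167) and 4.89 (SE 0.69, adjusted p = 0.00414). Neurog2, which encodes Ngn2 and whose reporter marked the positive cells, stood at 0.75 (SE 0.21, adjusted p = 0.155). The 6 arrays had median signals of 18.1 to 25.5. Positive replicates 1 and 2 stood apart in hybridization spike-ins, control RNAs added to every sample, with averages of 2293 and 2352, where the negative arrays had 4254 to 6560 and positive replicate 3 had 5018. Gapdh gave a 3' signal 4.41 and 4.73 times its 5' signal on those 2 arrays and 5.94 to 9.21 times on the rest. The same ratio for actin showed no such gap. It was 1.162 and 1.146 on those 2 arrays and 0.969 to 1.137 on the rest, and so not lower on them. The division by the spike-ins is called the spike-in side below. With it as a block, Lmx1a stood at 4.29 (adjusted p = 0.121) and Th at 4.38 (adjusted p = 0.176), so that neither passed. Since no negative array was on the lower side, a comparison within 1 side, or with the side as a block in the fit, sets positive replicate 3 against the negative arrays and rests on that 1 positive array. Results below use the array groups as labelled, and values with this block are given for the groups of genes and for selected genes.

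No subunit gene passed the test between the sorted groups. Of the 79 member genes, 75 had a probe set bright enough to be tested, and 0 were higher and 0 lower in positive cells by limma at an adjusted p under 0.05, where 1.06% of all 12044 tested genes passed (0.423% higher and 0.639% lower). An unadjusted p under 0.05 was reached by 3 members, Ndufb8, Cox7c and Atp5g1, against 10.8% of all tested genes. The smallest adjusted p among members was 0.331. Each difference is the log2 of positive over negative and is given with its standard error (SE) from limma, with 3 arrays per group. They ran from -0.98 to 0.81, and 65 of the 75 were under 0.5 in size. For 58 members the 95% interval of the difference lay inside a 2-fold change each way. As these are bulk samples, fewer cells of a type and less RNA per cell cannot be told apart.

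Most differences had the same sign without passing. They were negative for 56 of 75 members (74.7%), with a median of -0.20, against 47.7% and a median of 0.025 over all tested genes. By complex the median was -0.14 for complex I (21 of 33 negative), -0.18 for complex II (3 of 4), -0.16 for complex III (7 of 8), -0.31 for complex IV (11 of 13) and -0.30 for complex V (14 of 17). With quantile normalization the sign of the overall median stayed negative but its size shrank to -0.070, with 45 members negative and complex I at -0.013, and centring each array on its median gave -0.23 with 57 negative. With the spike-in side as a block the sign turned, to a median of 0.13 with 21 of 75 negative. Single members had another sign with the block in 39 cases, 37 of them from negative to positive. Groups of 3 did not overlap for 9 members, 2 with positive cells above and 7 with positive cells below, or 12.0% against 15.5% of all tested genes (8.21% above and 7.25% below).

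**Figure D1:**
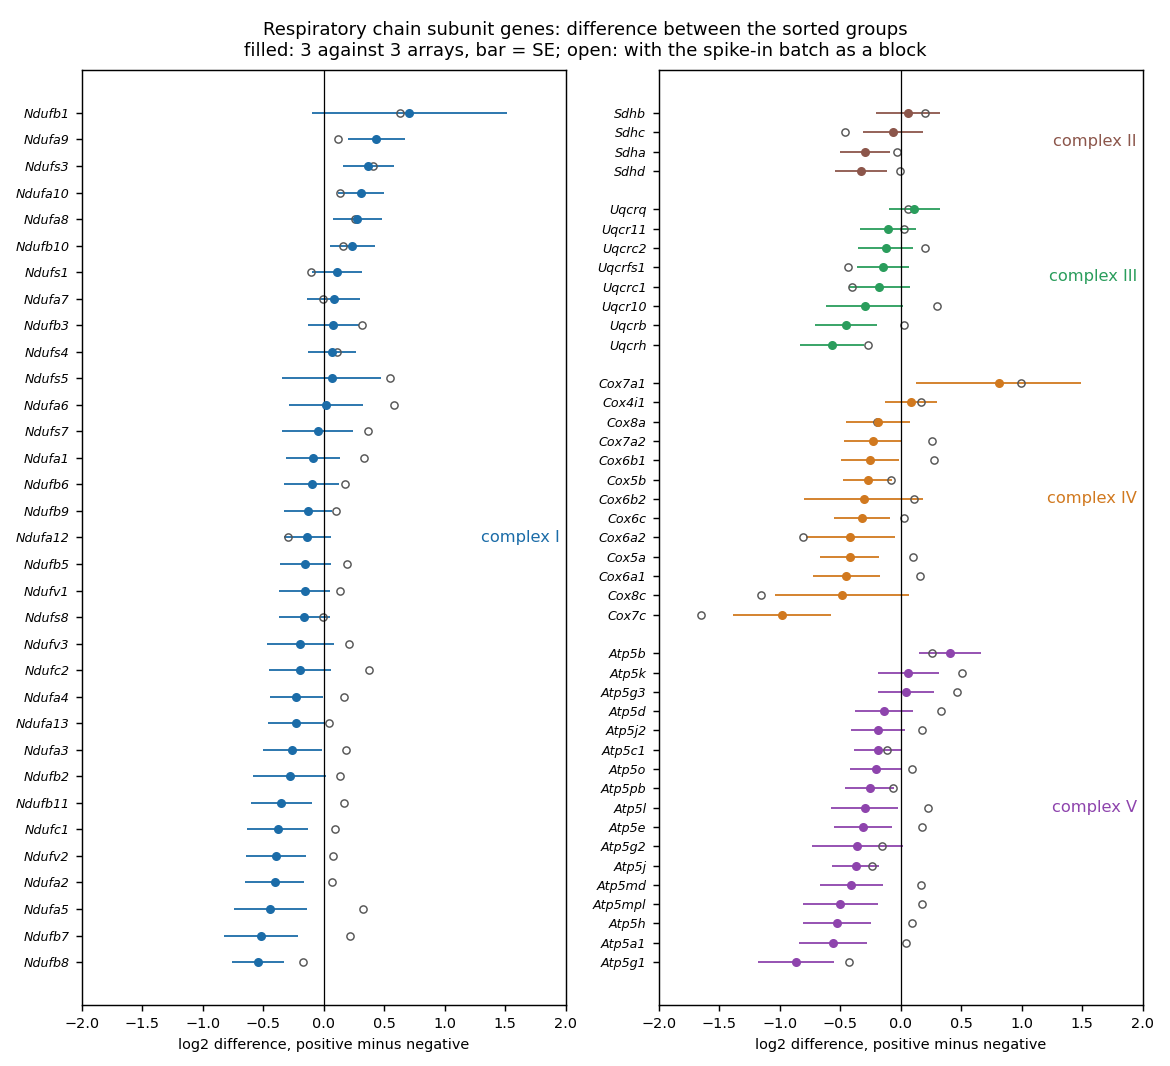
Log2 difference (positive minus negative, horizontal axis) of each of the 75 tested member genes, by complex and ordered by value. Filled points with bars are the limma difference and its SE (3 arrays per group), and open points are the difference with the spike-in side as a block. Filled points are mostly left of 0, with medians of -0.14 to -0.31 by complex, and most open points lie to the right of 0.

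The arrays of the positive group did not move together for these genes. Each member's log2 signal was set against its own mean over the 6 arrays, and the median of these deviations was -0.27 on positive replicate 1, -0.21 on positive replicate 2 and 0.22 on positive replicate 3. On the negative arrays it was 0.11, 0.059 and 0.14. Positive replicate 3 thus lay above the negative arrays at the median, and positive replicates 1 and 2 lay below them. It exceeded both other positive arrays for 55 of 75 members (73.3%), against 36.6% of all tested genes. For genes with a mean log2 signal of at least 10, the shares were 87.7% of all 788 tested and 93.9% of the 33 members. Positive replicates 1 and 2 were both below all 3 negative arrays for 39 members (52.0%), against 17.6% of all tested genes. Among genes with a mean log2 signal of at least 10, this held for 70.7% of all 788 tested and 81.8% of the 33 members. The typical spread between replicates was accordingly larger in positive cells, with a median SD of 0.36 on the log2 scale against 0.20 in negative cells. These medians were 0.34 against 0.20 over the 788 bright genes and 0.32 against 0.36 over all tested genes. Complex V had the widest division, with medians of -0.47, -0.25 and 0.33 on positive replicates 1, 2 and 3.

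**Figure D2:**
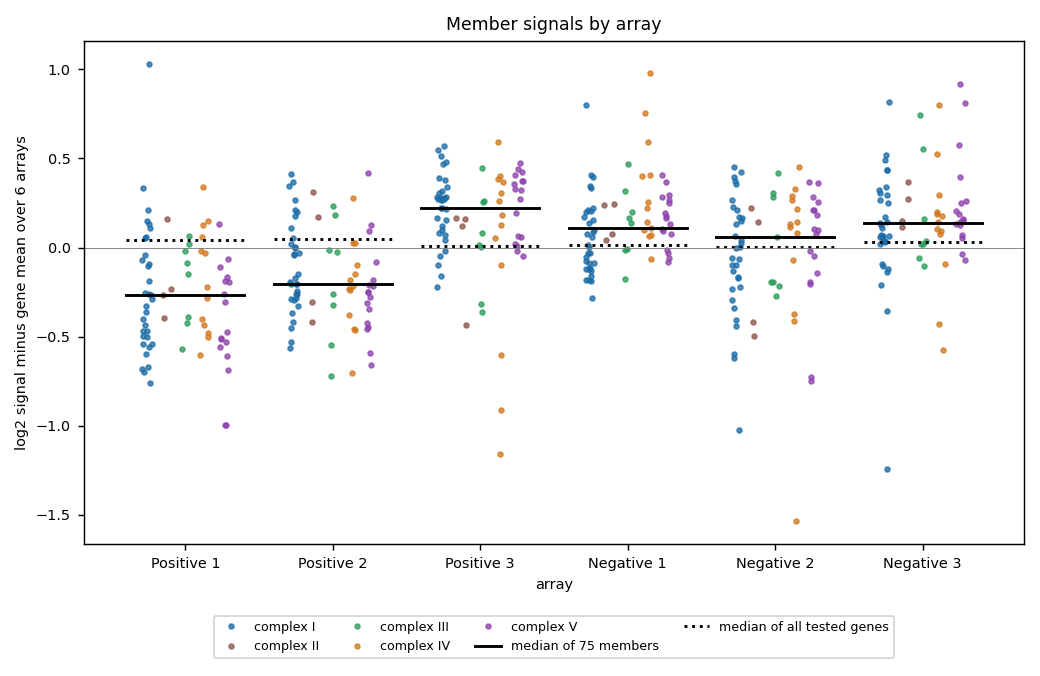
Log2 signal of each tested member minus its mean over the 6 arrays (vertical axis), by array. Each point is a gene coloured by complex, the solid line is the median of the 75 members (from -0.27 on positive replicate 1 to 0.22 on positive replicate 3) and the dotted line the median of all tested genes (0.00041 to 0.046).

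In a fit that left out positive replicate 3, so that spike-in side and group were the same, 6 of the 75 members were called lower, Ndufa5, Ndufb7, Ndufc1, Atp5a1, Atp5h and Atp5md, against 2.78% of all tested genes called lower in that fit, and 0 were called higher (0.764%, or 3.55% in either direction). All 6 had a mean log2 signal of at least 10. Among all 788 tested genes this bright, positive replicates 1 and 2 were both below all 3 negative arrays for 70.7%. Calls among bright genes alone were not counted in that fit, so these calls are not shown to be particular to subunit genes. In the same fit the differences of the 6 genes ran from -0.62 to -0.89. The median was -0.36 over members and 0.055 over all tested genes. With the spike-in side as a block the differences of these 6 genes ran from 0.045 to 0.33. With that block, which rests on 1 positive array, the median was 0.13 over members and 0.023 over all tested genes. Leaving out any of the other 5 arrays left 0 members called, where 60 to 83 of all 12044 tested genes were called.

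Complex I was the largest group and the most evenly divided. Its brightest gene was Ndufb7, an accessory subunit of the membrane arm, with signals of 2812, 3085 and 6359 on the positive arrays and 5323, 6231 and 4922 on the negative arrays. Positive replicate 3 was the brightest of all 6 arrays for this gene and the other positive arrays the dimmest, so the groups overlapped (difference -0.52, SE 0.31, adjusted p = 0.558). Ndufb8, another accessory subunit of the membrane arm, had the lowest difference of the complex, at -0.55 (SE 0.22, adjusted p = 0.378), and no overlap. Its signals were 562, 594 and 851 in positive and 894, 919.7 and 1075 in negative cells. With the block the difference was -0.17. The accessory subunits Ndufa10 and Ndufb10 were the 2 members with every positive array above every negative one. Signals of Ndufa10 were 676, 782 and 609 against 567, 529 and 567, a difference of 0.31 (SE 0.19, adjusted p = 0.583), and those of Ndufb10 were 773, 823 and 736 against 674, 639 and 665, a difference of 0.24 (SE 0.19, adjusted p = 0.664).

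The core subunits of complex I include those that carry the flavin and the iron-sulfur clusters that take electrons from NADH to ubiquinone. Of the 6 tested, 4 were negative, with a median of -0.10, beside -0.14 over the other 27 tested genes named for complex I. Ndufs3 stood at 0.37 (SE 0.21), with signals of 405, 467.5 and 453.5 in positive and 415, 287 and 335 in negative cells, and Ndufs1, the largest iron-sulfur subunit, at 0.11 (SE 0.21, and -0.10 with the block). Ndufv1, which binds NADH, stood at -0.16 (SE 0.21), Ndufs8 at -0.16 (SE 0.21), Ndufs7 at -0.050 (SE 0.29) and Ndufv2 at -0.40 (SE 0.25). None passed, and the 95% interval of each of the 6 lay inside a 2-fold change. The highest difference in the complex, 0.71 for the small subunit Ndufb1, came from signals of 20.2, 8.32 and 11.9 against 17.2, 6.42 and 4.17. These were near the detection filter, which the gene exceeded on 3 arrays, and its SE was 0.81.

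Complex II, the enzyme shared with the tricarboxylic acid cycle, had 4 members with small differences. The flavoprotein gene Sdha was the brightest, with signals of 1368, 1334 and 1790.1 in positive and 1738, 1919 and 1825 in negative cells, and a difference of -0.30 (SE 0.21, adjusted p = 0.620). The membrane anchor gene Sdhd was lowest at -0.33 (SE 0.21, adjusted p = 0.595) and the iron-sulfur subunit gene Sdhb highest at 0.057 (SE 0.26). Sdhc, the other anchor, stood at -0.066. In this complex positive replicate 3 lay among the negative arrays for Sdha and Sdhd, and with the block their differences were -0.029 and -0.0061. For Sdhc the block gave -0.47.

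Complex III was negative for all members but Uqcrq. Uqcrh, the hinge subunit by which cytochrome c docks, had the lowest difference, at -0.57 (SE 0.27, adjusted p = 0.472). Its signals were 612, 413 and 685 in positive and 602, 826 and 1139 in negative cells, so that negative replicate 1 fell within the positive range. Uqcrb, a ubiquinone-binding subunit and the brightest gene of the complex, had signals of 1772, 1585 and 2765 against 2887, 3103 and 2225 and a difference of -0.45 (SE 0.25, adjusted p = 0.540). Uqcrq, another small subunit, stood at 0.11 (SE 0.21). The core proteins Uqcrc1 and Uqcrc2 stood at -0.18 and -0.12, and the Rieske iron-sulfur protein Uqcrfs1 at -0.15. These larger subunits differed less than their SEs of 0.21 to 0.25. With the block, Uqcrh stood at -0.27 (SE 0.35), Uqcrc1 at -0.41 (SE 0.35) and Uqcrfs1 at -0.44 (SE 0.27), all still negative and not past the threshold, and Uqcrb at 0.028.

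In complex IV, cytochrome c oxidase, the tested subunits that surround the mitochondrially encoded core were mostly negative. Their mean log2 signals ran from 3.84 for Cox7a1 to 11.6 for Cox6c. Cox6c was the brightest, with signals of 2343, 2689 and 3592 in positive and 3781, 3348 and 3497 in negative cells, and a difference of -0.32 (SE 0.23, adjusted p = 0.638). Cox5b was below the negative range on all 3 positive arrays, at 1458, 1565 and 1844.5 against 2073, 1927 and 1871, although by only 1.21-fold (-0.28, SE 0.20, adjusted p = 0.644). The lowest difference of all members was that of Cox7c, at -0.98 (SE 0.40, adjusted p = 0.393). This value came from a dim probe set, with signals of 34.2, 37.2 and 17.9 against 52.8, 48.05 and 69.5, and here positive replicate 3 was the lowest array. With the spike-in side as a block the difference was -1.65 (adjusted p = 0.404). Cox4i1, the subunit through which ATP regulates the enzyme, stood at 0.082 (SE 0.21), with positive and negative arrays interleaved. The highest difference was 0.81 for Cox7a1 (SE 0.68), from signals of 18.2, 17.4 and 21.6 against 24.2, 4.95 and 10.6.

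Several complex IV subunits exist as a broadly expressed gene and a copy known from restricted tissues. The broad genes Cox4i1, Cox6a1, Cox6b1, Cox7a2 and Cox8a had geometric mean signals of 1328, 1472, 1352, 1588 and 134 in positive and 1254, 2011, 1611, 1865 and 153 in negative cells. Their differences ran from -0.45 for Cox6a1 to 0.082 for Cox4i1, with SEs of 0.21 to 0.27. Of the restricted copies, Cox4i2, known from lung, and Cox8b, known from heart and muscle, did not reach the filter, and their highest signals on any array were 12.9 and 15.8. Cox7b2 and the complex I gene Ndufb4 were the other members left untested. The muscle copies Cox6a2 and Cox7a1 and the testis copies Cox6b2 and Cox8c were tested at geometric mean signals of 10.8 to 52.1. Cox6a2 stood at -0.42 (SE 0.37), Cox6b2 at -0.31 (SE 0.49) and Cox8c at -0.49 (SE 0.55), and with the block Cox6a2 and Cox8c stood at -0.81 and -1.16. None of these copies passed, and the 95% interval of each tested one reached beyond a 2-fold change.

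Complex V held the brightest member and the second-lowest difference. Atp5a1 and Atp5b encode the subunits that alternate in the catalytic head of the synthase. On their brightest probe sets they differed in opposite directions. Atp5a1 gave signals of 3652, 3300.4 and 6515 in positive and 6331, 6711 and 5927 in negative cells, a difference of -0.56 (SE 0.28, adjusted p = 0.494). Atp5b gave 2019, 2456 and 1916 against 1742, 1111 and 2119, a difference of 0.40 (SE 0.26, adjusted p = 0.584). Neither passed, and the difference between the 2 genes was not tested. The other tested probe sets of Atp5a1 gave 0.30 (SE 0.22), the sign of Atp5b, and -0.55 (SE 0.27). With the spike-in side as a block Atp5a1 stood at 0.045 and Atp5b at 0.26, so both were positive. On the brightest probe set of Atp5a1 the positive group was split, with positive replicate 3 inside the negative range. For Atp5b the negative group was split, with negative replicate 2 apart.

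Atp5g1, Atp5g2 and Atp5g3 encode the same mature protein, the subunit of the rotating membrane ring. Atp5g1 gave 52.2, 83.9 and 105 in positive and 138, 109.8 and 183 in negative cells, with no overlap and a difference of -0.87 (SE 0.32, unadjusted p = 0.0170 and adjusted p = 0.331 by limma). With the block it was -0.43. Atp5g2 stood at -0.36 (SE 0.38) and Atp5g3 at 0.046 (SE 0.23). The remaining genes with no overlap were Atp5j and Atp5pb of the peripheral stalk and Atp5c1 of the central stalk. Atp5j gave 1447, 1459 and 1678 against 1984.5, 2007 and 1942 (-0.38, SE 0.20), Atp5pb gave 1129.5, 959.8 and 1278 against 1309, 1413 and 1283 (-0.26, SE 0.20), and Atp5c1 gave 1641, 1773 and 1844 against 2055, 2011 and 1941 (-0.19, SE 0.20). In each of these the positive arrays lay just below the negative ones, and adjusted p was 0.506 to 0.746. With Atp5g1, all positive arrays lay below all negative ones in 4 of the 17 complex V genes (23.5%), beside 9.33% of all tested members, 9.39% of all bright genes (mean log2 signal of at least 10) and 7.25% of all tested genes. Atp5h, also of the peripheral stalk, had positive replicate 3 inside the negative range and the other positive arrays below it, at 2965, 2894 and 5577 against 5347, 5602 and 4814 (-0.53, SE 0.28).

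**Figure D3:**
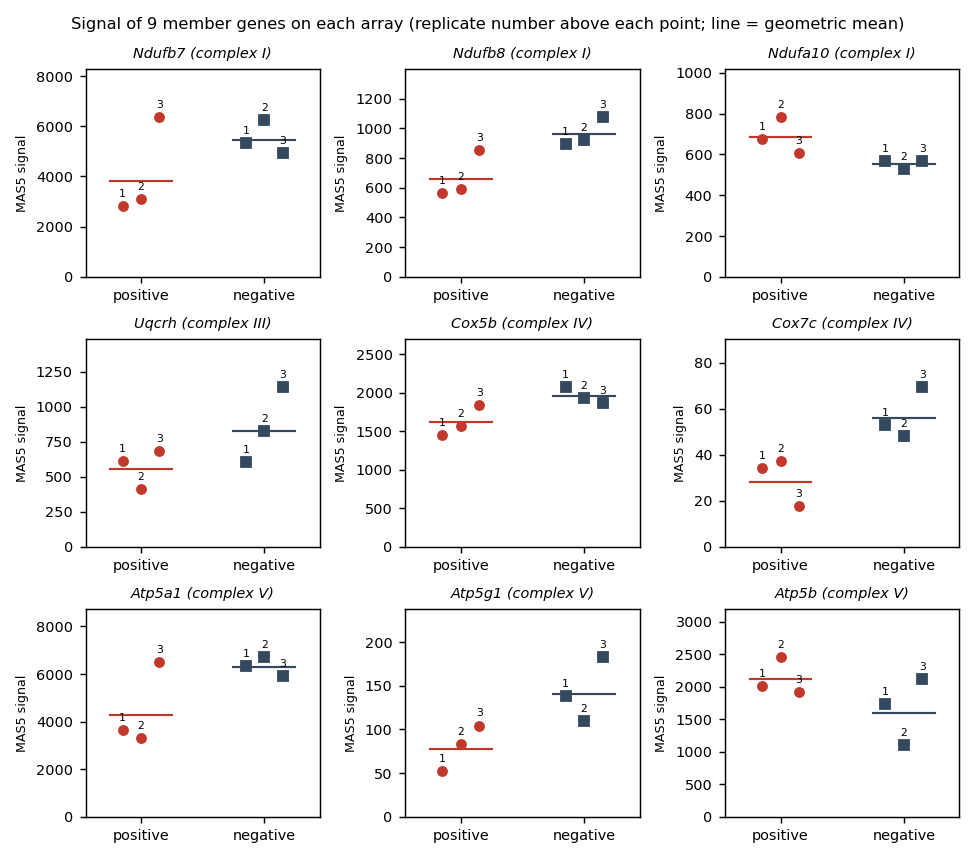
Deposited MAS5 signal (vertical axis, linear, from 0) of 9 member genes on the 3 positive arrays (circles) and 3 negative arrays (squares), with replicate numbers above the points and geometric means as lines. Positive replicate 3 is far above the other positive arrays for Ndufb7 (6359) and Atp5a1 (6515), while for Cox7c it is the lowest array (17.9).

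Promoters of respiratory chain genes are known for sites of nuclear respiratory factor 1 (NRF1) and of ETS family factors such as GABP (nuclear respiratory factor 2), which coordinate them. RefSeq promoter windows of build GRCm38.p6 matched 65 of the 79 member genes with 70 annotated starts. In the 250 bases before the start, the NRF1-like letters (GCGCA, any base N, then GCGC) were found, on either strand, in 12 member windows (17.1%) against 3.74% of all 32851 windows, and the ETS-like letters CCGGAAG in 12 (17.1%) against 6.91%. Both were found in 3 (4.29%) against 0.557%. A match is a description of the letters, not a bound site. The 3 windows with both motifs are shown because they hold the letters by which these genes are known, beside that of Atp5b, which has neither and had the highest difference in complex V. Sequences run 5' to 3' along the gene and end at the base before the start, with motif matches in capitals.
Cox6a1, chr5:115348959-115349208, minus strand: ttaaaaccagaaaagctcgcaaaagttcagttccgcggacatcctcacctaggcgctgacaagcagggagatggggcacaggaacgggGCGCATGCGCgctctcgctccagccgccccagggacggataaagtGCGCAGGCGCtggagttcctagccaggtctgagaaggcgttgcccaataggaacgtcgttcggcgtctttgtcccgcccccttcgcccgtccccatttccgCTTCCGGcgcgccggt
Sdhd, chr9:50603850-50604099, minus strand: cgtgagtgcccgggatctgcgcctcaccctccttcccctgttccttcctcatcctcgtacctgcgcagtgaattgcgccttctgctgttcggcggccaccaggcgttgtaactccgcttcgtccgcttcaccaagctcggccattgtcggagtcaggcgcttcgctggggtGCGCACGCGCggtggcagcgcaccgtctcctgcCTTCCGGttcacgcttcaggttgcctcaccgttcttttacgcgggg
Atp5h, chr11:115419920-115420169, minus strand: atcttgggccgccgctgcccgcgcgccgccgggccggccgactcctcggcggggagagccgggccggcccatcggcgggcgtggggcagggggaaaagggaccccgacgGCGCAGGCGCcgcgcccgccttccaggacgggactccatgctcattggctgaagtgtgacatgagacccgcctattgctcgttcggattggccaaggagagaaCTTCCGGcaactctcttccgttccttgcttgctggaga
Atp5b, chr10:128083057-128083306, plus strand: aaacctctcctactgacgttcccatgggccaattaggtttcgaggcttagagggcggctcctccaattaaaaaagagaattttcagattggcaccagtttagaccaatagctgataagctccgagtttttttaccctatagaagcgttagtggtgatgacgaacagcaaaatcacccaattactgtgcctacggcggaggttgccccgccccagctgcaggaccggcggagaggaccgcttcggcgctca
The ETS-like match ended 10 bases before the start in Cox6a1, 40 in Sdhd and 32 in Atp5h, and the nearest NRF1-like match 108, 70 and 132 bases before it. Differences of these 3 genes were -0.45, -0.33 and -0.53. With the spike-in side as a block they were 0.16, -0.0061 and 0.089, beside 0.26 for Atp5b. Without the block, the median over the 10 tested members with the NRF1-like letters was -0.31, beside -0.19 over the 52 tested members whose windows lack them. With the ETS-like letters the median was -0.32 over 12 members, and without them -0.19 over 50. These are descriptions of genes that share arrays and were not tested.

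Members are unusually bright genes, and over the whole array the brightest genes had lower differences. Per log2 unit of signal, the median of all tested genes stayed between -0.019 and 0.098 from 4.5 to 9.5. It was -0.20 at 10.5, -0.41 at 11.5 and -0.64 at 12.5. There were 33 members with a mean log2 signal of at least 10, of which 29 had negative differences (87.9%), with a median of -0.26. Over all 788 tested genes this bright, 673 had negative differences (85.4%), with a median of -0.29. Under that level the median was -0.14 over 42 members and 0.054 over 11256 genes. The deviations by array were alike too. All bright genes had medians of -0.32, -0.32 and 0.23 on positive replicates 1, 2 and 3, and the bright members had -0.39, -0.26 and 0.28. For 87.7% of all bright genes positive replicate 3 exceeded both other positive arrays, as it did for 31 of the 33 bright members (93.9%). Across genes, mean log2 signal and difference correlated at a Pearson r of -0.24 over the 75 members and -0.079 over all tested genes, where genes share arrays and are not replicates. The part of brightness or of the spike-in side in the members' differences was not tested.

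**Figure D4:**
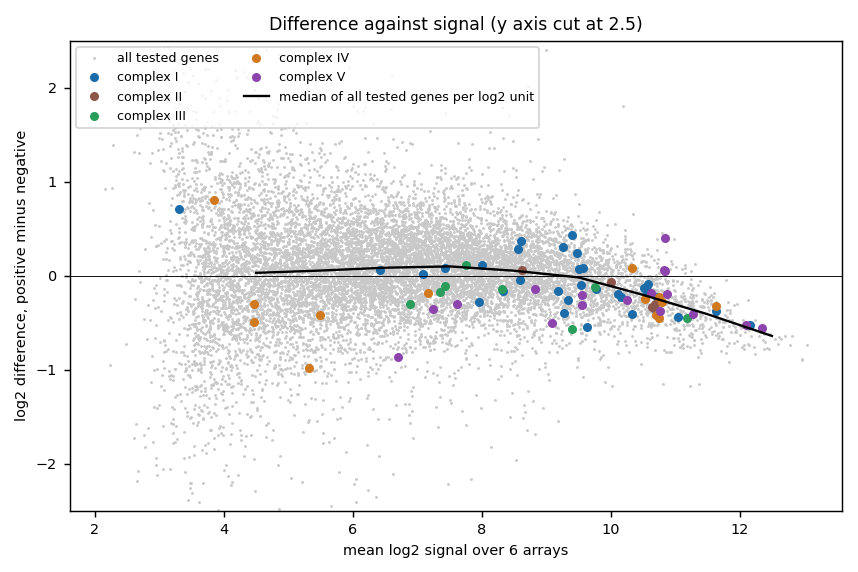
Log2 difference (positive minus negative, vertical axis, with genes beyond 2.5 outside the frame) against mean log2 signal over the 6 arrays (horizontal axis) for all 12044 tested genes (grey) and the 75 members (coloured by complex). The black line is the median of all tested genes per log2 unit, which is 0.098 at 7.5 and -0.64 at 12.5, and the brightest members lie along it.

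Probe sets of the same gene often differed in sign, in part on dim probe sets. Of 139 tested member probe sets, 102 were negative, with a median of -0.19. When each was tested on its own by limma, 0 passed (0.647% of all probe sets did), with a smallest adjusted p of 0.196. For 42 genes there was more than 1 tested probe set. Among their 64 dimmer probe sets, 37 matched the brightest in sign and 27, from 19 genes, did not. The second probe set of Atp5h gave 1452, 1349 and 1435 in positive and 1286, 1067 and 1234 in negative cells, a difference of 0.24 where the brightest gave -0.53. In Ndufb7 the second probe set gave 278, 355 and 345 against 263, 312 and 258, a difference of 0.23 where the brightest gave -0.52. In neither gene was positive replicate 3 far from the other positive arrays on the second probe set.

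Among the other genes of opposite sign, Ndufs8 had 6 probe sets, from -0.17 to 0.91 (SE 0.49), and Ndufa7 had 5, from -0.53 to 0.082. Atp5g1, at -0.87 on its brightest probe set, gave 0.31 on its other one, which was dim, with signals of 6.75 to 38.1 and an SE of 0.64, and so shows no direction. Other probe sets of further genes of opposite sign gave 0.94 for Ndufs7 (SE 0.53), 0.67 for Ndufa3 (SE 0.57), 0.30 for Uqcrc2 (SE 0.19) and 0.30 for Atp5a1 (SE 0.22). Those of Ndufs7 and Ndufa3 were dim, with signals of 10.9 to 69.2 and 10.3 to 31.9. Atp5c1, Atp5j2, Atp5o, Ndufv1, Ndufc2, Ndufv2 and Ndufb9 turned positive on another probe set at 0.28, 0.28, 0.15, 0.27, 0.26, 0.024 and 0.0011. Ndufa10, Atp5k and Ndufs4 turned negative at -0.51, -0.44 and -0.38 at the lowest. The SE exceeded the difference for Atp5c1 (0.44), Atp5j2 (0.46), Atp5o (0.28), Ndufv2 (0.23), Ndufb9 (0.19), Ndufa10 (0.61) and Ndufs4 (0.66). None of the probe sets of opposite sign passed on its own, so no direction is shown by those with a smaller SE either. The SE also exceeded the difference on the brightest probe set of some genes, as for Ndufv1 and Ndufs8 (both -0.16, SE 0.21). Cox5a, Cox5b, Cox6a1, Cox6b1, Cox6c, Cox7a2 and Cox8a, all of complex IV, kept a negative sign on each of their tested probe sets. So did genes of every other complex, among them Ndufa12, Ndufb11, Sdha, Uqcrb and Atp5pb. On some of these the SE exceeded the difference, as for Cox5b (-0.042, SE 0.21) and Cox8a (-0.17, SE 0.36). With the spike-in side as a block, the brightest probe sets of Cox5a, Cox6a1, Cox6b1, Cox6c and Cox7a2 turned positive. Those of Cox5b and Cox8a stayed negative. The lowest value on any tested member probe set was -2.09, on a dim one of Uqcr10 with signals of 2.88, 17.1 and 4.97 against 21.4, 25.0 and 35.4, whose brightest probe set gave -0.30. Many subunit genes have processed pseudogenes, and the suffixes _s_at and _x_at mark probes that can match other transcripts. Of the tested probe sets, 15 of 17 with _s_at and 24 of 25 with _x_at were negative, as were 28 of 35 with _a_at, which marks probes shared by transcripts of the same gene, beside 35 of the 62 with the plain suffix _at. With plain _at probe sets alone, the median over complex I genes was 0.044. Medians were -0.23 for _s_at, -0.21 for _x_at, -0.23 for _a_at and -0.077 for _at.

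**Figure D5:**
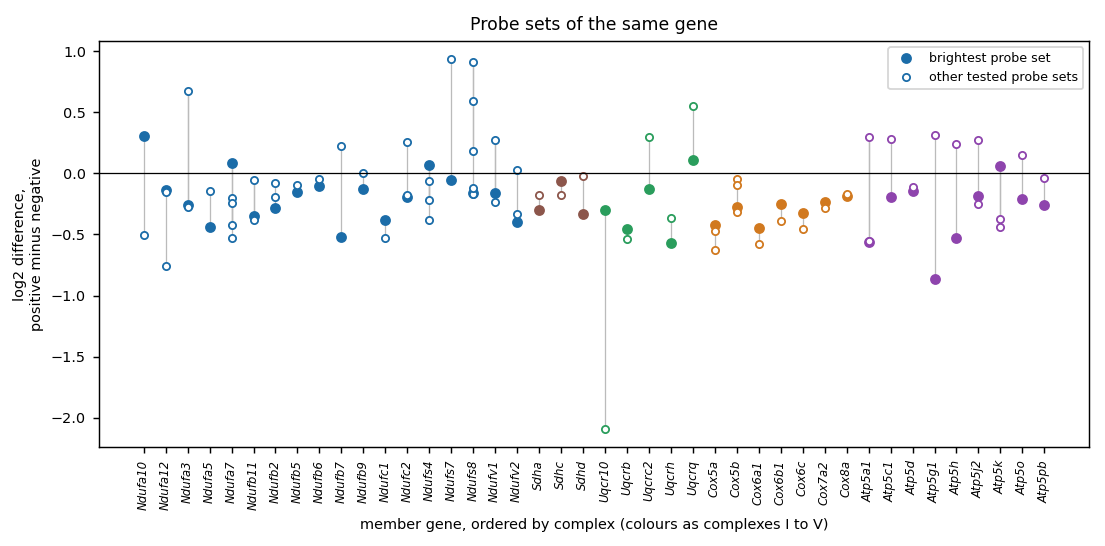
Log2 difference (positive minus negative, vertical axis) of every tested probe set of the 42 member genes with more than 1, ordered by complex. Filled points are the brightest probe set of the gene and open points the others, and for 19 genes they lie on both sides of 0.

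Genes that build and feed the chain also gave no calls, where 1.06% of all tested genes passed. Of 47 tested assembly factors none passed, 18 were negative and the median was 0.11. The brightest were Cox17, a copper chaperone for complex IV, at -0.76 (SE 0.23, adjusted p = 0.216), and Cox20, another complex IV assembly factor, at -0.46 (SE 0.21). Among 9 other proteins of the chain none passed (median -0.069), with Atpif1, an inhibitor of the ATP synthase, at -0.60 (SE 0.28) and Cox7a2l, which joins complexes into supercomplexes, at -0.44 (SE 0.25). None of 16 regulators of mitochondrial biogenesis passed (median 0.029), including Yy1 at -0.034 and Gabpa, a subunit of GABP, at -0.11. The medians were 0.16 for 21 tricarboxylic acid cycle and pyruvate dehydrogenase genes, 0.17 for 17 glycolysis genes, -0.0047 for 23 mitochondrial import genes and -0.028 for 73 mitochondrial ribosomal proteins, with no calls in any of them. Their brightest genes were Mdh2 (-0.37) and Cs (-0.073), Ldhb (-0.32) and Pgam1 (-0.30), Hspd1 (-0.21) and Tomm7 (-0.69), and Mrpl39 (-0.31) and Mrpl11 (-0.019). With the spike-in side as a block the median turned sign for glycolysis (-0.042), the other chain proteins (0.088), the biogenesis regulators (-0.00068) and the mitochondrial ribosomal proteins (0.0025), and kept it for assembly factors (0.050), the cycle genes (0.11) and import (-0.033). Atpif1, Cox7a2l and Mdh2 then stood at 0.031, 0.053 and 0.16. No difference between these lists and the subunit genes was tested.

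Markers of other cell types differed between the groups. Summed signals of 9 erythroid markers were 326 to 631 on the positive and 7515 to 14954 on the negative arrays, with 5 of 5 tested markers called lower in positive cells, and those of 11 macrophage markers were 50.6 to 79.8 and 409 to 831, with 4 of 6 called lower. Summed signals of 10 radial glia markers were 5123 to 7775 and 8956 to 10919, with 2 of 10 called lower, and those of 10 general neuronal markers were 14907 to 21320 and 19051 to 22524, with none called. None of 9 endothelial markers was tested, and summed signals of 8 pericyte markers were 79.8 to 119 in positive and 159 to 235 in negative cells. Of 9 tested cycling markers none was called, with sums of 3116 to 3558 and 3264 to 4403. With the spike-in side as a block, 4 of 5 erythroid, 2 of 6 macrophage and 1 of 10 radial glia markers were called lower, with Alas2, Aif1, C1qb and Fabp7 no longer past the threshold. The part of these cells in the subunit genes' differences was not tested.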

How the data were processed

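Biotin-labelled RNA of each sample was measured on 1 array. The authors deposited a linear intensity per probe set. The tools listed per the submitters' processing notes are MAS5, limma and R 2.14.2. No version of MAS5 or of that limma is stated there. All 6 arrays had a 2% trimmed mean of 100, so total RNA content is not measured, and array number limits precision. Gene names came from the platform annotation, and 0 symbols changed against GRCm38.p6 gene IDs.

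Members and lists were chosen with earlier results of these data known. After a floor of 1, values were put on the log2 scale. Testing needed a signal above the array's 40th percentile on at least 3 arrays, and each gene was represented by its brightest probe set. The test was limma 3.58.1 (R 4.3.3, eBayes with a trend, two-sided, 4 residual degrees of freedom), adjusted by Benjamini-Hochberg over 12044 genes. On 10 simulated data sets of 12044 genes with 200 changed, changes of 2-fold were called in 16.9%, those of 4-fold in 61.6% and those of 16-fold in 91.2%, while 3.59% of the calls were false. Simulated arrays were independent and normal, with each gene's mean and residual SD. They lacked shifts shared by genes on an array, so the false share need not hold for the real arrays. The rates cover all genes (median SE 0.31), not the members alone (median SE 0.24). Named were members past the threshold, those without overlap between groups, the brightest, highest and lowest of each complex, those with probe sets of opposite sign, restricted copies with their broad counterparts, and the 2 brightest of each pathway list, with others named to complete a description. Same-numbered replicates were not paired (correlations of their deviations 0.14, -0.096 and 0.032). Alternatives were other scalings, filters, floors, probe set choices, blocks and arrays left out. Figures used matplotlib 3.10.9. Scan batches were not analysed here.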

Additional observations from a re-analysis of the deposited data

How the results depend on the processing

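With the spike-in side as a block, and likewise on its higher side alone, both of which set 1 positive array against 3, the median difference was 0.13 over members, 0.16 for complex I, -0.017 for complex II, 0.027 for complex III and 0.17 for complex V, and for complex IV 0.098 with the block and 0.052 on the side alone, where the brightest probe set of Cox5a was another. In all, 39 members had another sign with the block. Those among the genes named by rule, with the same values in both fits, stood at 0.045 for Atp5a1, 0.089 for Atp5h, 0.18 for Atp5j2, 0.092 for Atp5o, 0.16 for Cox6a1, 0.27 for Cox6b1, 0.11 for Cox6b2, 0.022 for Cox6c, 0.25 for Cox7a2, 0.19 for Ndufa3, -0.0045 for Ndufa7, 0.22 for Ndufb7, 0.099 for Ndufb9, 0.37 for Ndufc2, 0.37 for Ndufs7, 0.14 for Ndufv1, 0.080 for Ndufv2, 0.028 for Uqcrb and 0.20 for Uqcrc2. Averaging all tested probe sets of each gene, the sign turned for Atp5c1 (0.044), Atp5k (-0.25), Ndufa10 (-0.10), Ndufa3 (0.047), Ndufa7 (-0.26), Ndufs4 (-0.15), Ndufs7 (0.44), Ndufs8 (0.21) and Uqcrc2 (0.088). Quantile normalization turned it for Atp5a1 (0.089), Atp5c1 (0.13), Atp5h (0.065), Atp5j2 (0.023), Cox5b (0.0092), Cox6c (0.18), Ndufb7 (0.068) and Ndufb9 (0.075). Without _s_at, _x_at and _a_at probe sets it turned for Atp5c1 (0.28), Atp5g1 (0.31), Atp5h (0.24), Atp5k (-0.44), Ndufb7 (0.23), Ndufb9 (0.0011), Ndufs7 (0.94), Ndufs8 (0.59), Ndufv1 (0.27) and Ndufv2 (0.024), and the complex I median was 0.044. The cause of these changes was not tested.

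When each array was left out in turn, the members called lower ranged from 0 to 6, the 6 arising without positive replicate 3, where Atp5a1 (-0.86), Atp5h (-0.84) and Ndufb7 (-0.89) passed. The median ranged from -0.36 to -0.12 over members, -0.26 to -0.045 for complex I, -0.28 to -0.12 for complex II, -0.28 to -0.14 for complex III, -0.47 to -0.24 for complex IV and -0.44 to -0.13 for complex V. Leaving out positive replicate 3 gave the low end for complexes I, IV and V. Sign turned in at least 1 of these fits for Atp5k (-0.16 to 0.31), Cox4i1 (-0.084 to 0.20), Ndufs4 (-0.0033 to 0.19), Sdhb (-0.18 to 0.27), Ndufs7 (-0.26 to 0.28), Ndufa7 (-0.0017 to 0.13) and Uqcrc2 (-0.29 to 0.056). With the replicate block, which same-numbered samples do not warrant, the member median was -0.20, 0 members passed and 127 genes were called. Over all genes, calls numbered 128 as reported, 42 without a variance trend, 19 with no filter, 34 with the spike-in side as a block, 37 on its higher side alone, 427 without positive replicate 3 and 60 to 83 without any other array. With 3 arrays per group, the fit called 16.9% of 2-fold changes over all genes in simulated data with independent arrays.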
